A study of Homo sapiens with 4 samples.

Results

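The endoplasmic reticulum (ER) chaperones examined here are 10 genes listed by name: HSPA5, HYOU1, DNAJC3, DNAJB9, HSP90B1, CALR, CANX, PDIA3, PDIA4 and PDIA6. They and the other gene lists below were chosen with earlier results of these data known. All 10 have a row among the 56303 features of the count table, and all 10 passed the count filter (10 counts or more in 2 or more libraries) that left 19210 features to compare. The libraries come from Huh7, an established line of human hepatocellular carcinoma cells, transfected with a control hairpin (shControl) or with a plasmid for a hairpin against the RNA-binding splicing factor RBM39 (shRBM39). For each culture there is 1 library of input RNA and 1 library of RNA recovered with an RBM39 antibody (IP), so there are 4 libraries and no replicates. An IP with a control antibody is not among them, so a ratio of IP over input does not separate RNA bound to RBM39 from RNA recovered for other reasons. Total counts ran from 20858382 to 45812488 per library.

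The ER folds nearly all proteins that a cell secretes or puts in its membranes, and hepatocytes are among the cells with the heaviest secretory load. Nascent chains are held by the Hsp70 protein BiP with its J-domain and nucleotide-exchange partners, passed to the Hsp90 protein GRP94 or held by the lectins calnexin and calreticulin, while protein disulfide isomerases form and rearrange their disulfide bonds. When unfolded proteins accumulate, the sensors ATF6, IRE1 and PERK start the unfolded protein response, in which many of these chaperone genes are induced together through ER stress elements in their promoters.

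No stress treatment is among the groups and induction was not measured here, and the promoters were searched only to describe which of the genes carry these elements. RefSeq windows (GRCh38.p14, 250 bases before to 50 bases after each annotated start) were at hand for 9 of the 10 genes, PDIA3 being the exception. The element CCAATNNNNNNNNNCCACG, searched on both strands, was found for 5 of these 9 genes, namely HSPA5, HSP90B1, CALR, CANX and PDIA6, against 0.0916% of the 27305 genes with a window. For CANX and PDIA6 only some of the annotated starts have it in their window. The related element ATTGGNCCACG, which shares its last 5 bases with the first but is a different word, was found for HYOU1, against 0.0696% of genes. Stretches upstream of the start are shown for 4 genes, 5′ to 3′ on the strand of the gene, with the matches in capitals.

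HSPA5, chr9:125241366-125241434, minus strand: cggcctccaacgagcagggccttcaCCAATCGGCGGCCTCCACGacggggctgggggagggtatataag
HSP90B1, chr12:103930191-103930364, plus strand: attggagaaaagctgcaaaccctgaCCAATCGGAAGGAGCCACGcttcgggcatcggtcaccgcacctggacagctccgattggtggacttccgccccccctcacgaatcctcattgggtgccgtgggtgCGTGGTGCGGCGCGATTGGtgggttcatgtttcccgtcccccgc
CALR, chr19:12938359-12938427, plus strand: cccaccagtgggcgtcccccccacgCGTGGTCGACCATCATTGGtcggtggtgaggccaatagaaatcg
HYOU1, chr11:119057249-119057415, minus strand: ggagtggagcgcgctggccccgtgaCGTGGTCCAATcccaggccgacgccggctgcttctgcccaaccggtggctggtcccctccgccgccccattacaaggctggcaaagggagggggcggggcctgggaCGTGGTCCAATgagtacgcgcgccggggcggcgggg

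HSPA5 has its match in the orientation of the gene, CALR in the opposite orientation and HSP90B1 in both, and HYOU1 has the second element at 2 places. These matches describe the letters of the windows only. No windows for DNAJC3, DNAJB9 or PDIA4 held either word.

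The label of the hairpin was checked on its target first. RBM39 stood at 404 and 1036 CPM in shControl input and IP, and at 370 and 2221 CPM in shRBM39 input and IP. CPM are counts scaled to a common library size (per 1000000, with TMM factors). Its input level differed by only -0.13 on the log2 scale between the cultures (95% counting interval -0.17 to -0.08), so shRBM39 below means the library with that label. Of the hepatocyte genes, AFP had 57974 to 98952 counts, ALB 29767 to 88991, APOB 29155 to 87168 and APOA1 18537 to 45940. HNF4A had 4402 to 18146 and TTR 1139 to 2357. The leukocyte gene PTPRC had 0 to 2 counts and the basal keratin KRT5 1 to 6. Other markers of non-hepatocyte cells were counted at low to moderate numbers. These were the fibroblast collagen COL3A1 at 12 to 56, the endothelial PECAM1 at 130 to 203 and the macrophage gene CD68 at 304 to 419. The epithelial EPCAM stood at 1608 to 1862, within the range of TTR. Every group is 1 library, so intervals below reflect counting noise alone and differences between 2 libraries carry no p-value. A feature counts as called higher or lower at a 2-fold difference or more (a log2 value of 1 in size) with an interval that leaves out 0.

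All 10 ER chaperone mRNAs had a lower level in the IP than in the input, in shControl and in shRBM39 cells alike. In shControl cells 1 of them, HSP90B1, was called lower and 0 higher, where 11.3% of all features compared were called lower and 7.70% higher. The median of the 10 log2 ratios was -0.55, with a range from -1.38 to -0.10, against a median of -0.01 over all features compared and one of 0.12 over the 10310 features with at least 1000 summed counts. CALR was the closest to 0, at -0.10, and came to -0.02 with total-count scaling and -0.01 without the count filter. In shRBM39 cells 5 were called lower and 0 higher, namely HSP90B1, PDIA3, CANX, HSPA5 and DNAJC3 (with PDIA4, at -1.01, as a sixth under total-count scaling), where 9.00% of features were called lower and 5.29% higher. There the median was -1.02, with a range from -1.71 to -0.63, against 0.02 over all features and 0.10 over the deeply counted ones.

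**Figure D1:**
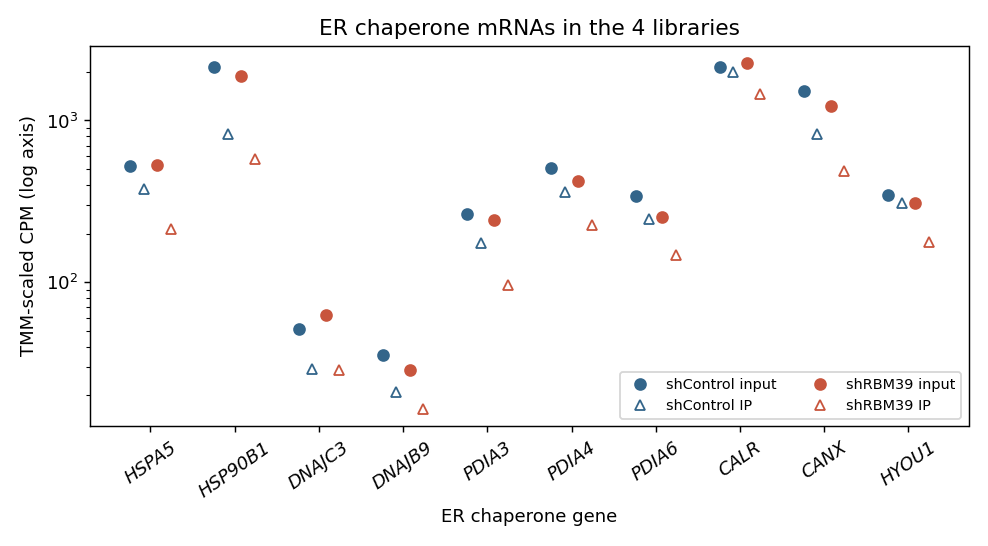
TMM-scaled CPM (log axis) of each ER chaperone mRNA in the 4 libraries, input as filled circles and IP as open triangles, shControl in blue and shRBM39 in red. Both IPs lie below both inputs for every gene but HYOU1, whose shControl IP (309.8 CPM) is level with its shRBM39 input (309 CPM).

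The same question was put to both cultures in a single model. edgeR's quasi-likelihood test of IP against input, with culture as a second term and 1 residual degree of freedom, found 8 of the 10 mRNAs lower in the IP at a Benjamini-Hochberg adjusted p under 0.05 and 0 higher. Over all features, 17.6% were lower and 19.2% higher by this test. HSP90B1 had the largest difference (log2 -1.54, adjusted p = 3.01e-05 by edgeR), followed by CANX (-1.10, adjusted p = 0.000528), DNAJC3 (-0.97, adjusted p = 6.02e-05) and PDIA3 (-0.97, adjusted p = 0.000438). HSPA5 stood at -0.89 (adjusted p = 0.0022), DNAJB9 at -0.78, PDIA4 at -0.69 and PDIA6 at -0.64. HYOU1 (-0.48, adjusted p = 0.0523 by edgeR) and CALR (-0.37, adjusted p = 0.232) did not pass. The 2 cultures serve as each other's replicate here, so the difference between cultures described below counts as error in this test.

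The Hsp70 machinery was taken first. HSPA5 encodes BiP, the ER Hsp70 and the main regulator of the stress sensors (chromosome 9, 125234853 to 125241343 in RefSeq, GRCh38). It stood at 525 CPM in shControl input and 377 in shControl IP, and at 528 and 214 in shRBM39 input and IP. The inputs were level, and the shRBM39 IP was the lowest library. Its IP over input was 0.719-fold in shControl cells (log2 -0.48, -0.51 to -0.44) and 0.406-fold in shRBM39 cells (log2 -1.30, -1.34 to -1.26).

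HYOU1 encodes GRP170, a large Hsp70 relative that exchanges nucleotide on BiP (chromosome 11, 119044188 to 119057205). Its levels were 345 and 309.8 CPM in shControl input and IP, and 309 and 177 CPM in shRBM39 input and IP. Here 3 libraries lay close together and the shRBM39 IP stood below them. The log2 ratio of IP over input was -0.15 (-0.20 to -0.11) in shControl cells and -0.81 (-0.85 to -0.76) in shRBM39 cells.

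The J-domain partners of BiP had the fewest counts of the 10 genes. DNAJC3, known as P58IPK (chromosome 13, 95677139 to 95794988), stood at 51.2 and 29.2 CPM in shControl input and IP and at 62.7 and 28.6 CPM in shRBM39 input and IP. Its IPs were level and its input was higher in shRBM39 cells, unlike the pattern of HSPA5. DNAJB9, or ERdj4, which with BiP restrains the sensor IRE1 (chromosome 7, 108569874 to 108574850), stood at 35.4 and 21.0 CPM in shControl input and IP and at 28.8 and 16.5 CPM in shRBM39 input and IP. Its log2 IP over input was -0.75 (-0.89 to -0.61) in shControl and -0.80 (-0.96 to -0.64) in shRBM39 cells, intervals that overlap.

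HSP90B1 encodes GRP94, the Hsp90 of the ER, which folds integrins and Toll-like receptors (chromosome 12, 103930410 to 103947926). It stood at 2139 CPM in shControl input, 824 in shControl IP, 1889.6 in shRBM39 input and 579.6 in shRBM39 IP. Both IPs lay far below both inputs, and it had the lowest ratio of the 10 in each culture, 0.385-fold (log2 -1.38, -1.40 to -1.36) in shControl and 0.307-fold (log2 -1.71, -1.73 to -1.68) in shRBM39 cells. The next lowest was CANX in shControl cells, 0.51 above it on the log2 scale (0.48 to 0.54), and PDIA3 in shRBM39 cells, 0.38 above it (0.31 to 0.44).

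**Figure D2:**
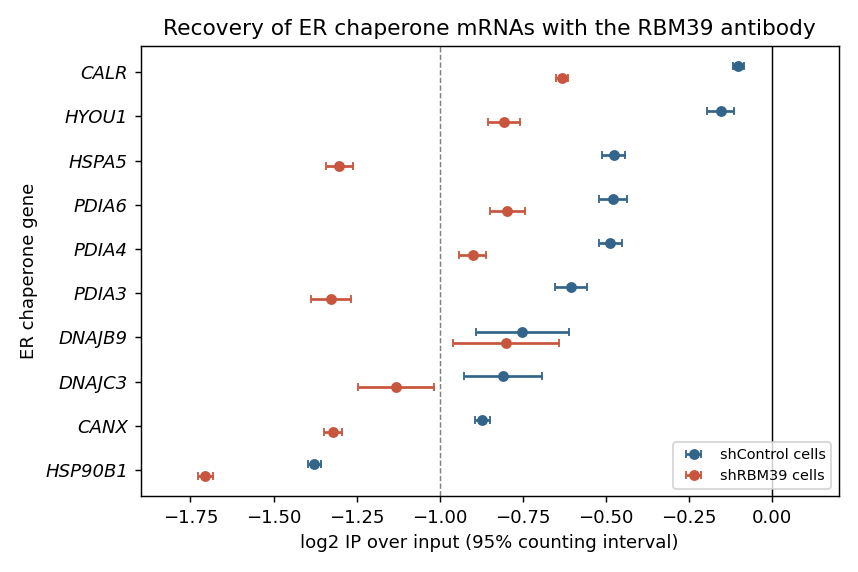
Log2 IP over input of the 10 ER chaperone mRNAs, ordered by the value in shControl cells (blue) with shRBM39 cells in red, and 95% intervals of counting error. All 20 points lie below 0, and the dashed line marks a 2-fold lower level, which only HSP90B1 passes in shControl cells and 5 genes pass in shRBM39 cells.

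Calnexin, calreticulin and PDIA3 form the cycle that folds N-glycosylated proteins. CALR, the soluble lectin (chromosome 19, 12938609 to 12944489), stood at 2148 and 2002 CPM in shControl input and IP, and at 2259.9 and 1459 CPM in shRBM39 input and IP. It was the member least below its input in both cultures, with log2 ratios of -0.10 (-0.12 to -0.09) and -0.63 (-0.65 to -0.61). CANX, the membrane-bound lectin of the same fold (chromosome 5, 179678656 to 179731641), stood at 1516 and 829 CPM in shControl input and IP and at 1222 and 489 CPM in shRBM39 input and IP. It was called lower only in shRBM39 cells, with log2 ratios of -0.87 (-0.89 to -0.85) in shControl and -1.32 (-1.35 to -1.29) in shRBM39 cells. PDIA3, or ERp57, the isomerase that docks on both lectins (chromosome 15, 43746438 to 43773278), stood at 265 and 174 CPM in shControl input and IP and at 241 and 96.0 CPM in shRBM39 input and IP. Its log2 ratio was -0.61 (-0.65 to -0.56) in shControl cells and -1.33 (-1.39 to -1.27) in shRBM39 cells, and in the latter it did not differ from CANX (-1.32) beyond counting error.

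The remaining disulfide isomerases had near-equal ratios of IP over input in shControl cells and differed somewhat in shRBM39 cells. PDIA4, or ERp72 (chromosome 7, 149003051 to 149028505), stood at 509 and 363 CPM in shControl input and IP and at 423 and 226 CPM in shRBM39 input and IP. PDIA6, or P5, a partner of BiP (chromosome 2, 10783391 to 10837712), stood at 341 and 245 CPM in shControl input and IP and at 254 and 146 CPM in shRBM39 input and IP. In shControl cells HSPA5, PDIA6 and PDIA4 had log2 ratios of -0.48, -0.48 and -0.49, and neighbours in that order did not differ beyond counting error. In shRBM39 cells PDIA6 was at -0.80 (-0.85 to -0.74), PDIA4 at -0.90 (-0.94 to -0.86) and HSPA5 well below them.

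The next comparison was the change of recovery with the hairpin, the difference between the log2 IP over input of shRBM39 and of shControl cells. It is computed from the ratios above and shares all their libraries. All 10 differences were below 0, with a median of -0.43 and a range from -0.83 to -0.05. The median was 0.00 over all features and -0.03 over the deeply counted ones. The other gene lists, described below, also had medians below 0. Other ER folding genes stood at -0.30 (40 of 46 below 0), cytosolic chaperones at -0.27 (22 of 28) and mitochondrial ones at -0.21 (7 of 9). Genes of protein import into the ER stood at -0.18 (15 of 23), degradation genes at -0.16 (14 of 21) and stress response genes at -0.14 (9 of 14). Called lower were 0 of the 10 and called higher 0, where 2.74% of features were called lower and 4.39% higher. With libraries scaled to total counts HSPA5 was called lower (-1.02), a scaling that moved the median of all features by -0.19. The 6 hepatocyte genes listed also had differences below 0. AFP stood at -1.17, ALB at -1.03, APOA1 at -0.81, APOB at -0.39, TTR at -0.35 and HNF4A at -0.04 (-0.10 to 0.03). Between the inputs AFP (0.60), APOA1 (0.44), TTR (0.73) and HNF4A (0.59) were higher in shRBM39, ALB (-0.42) and APOB (-0.68) lower. Between the IPs TTR (0.38) and HNF4A (0.55) were higher, the others lower. Of the other markers compared, CD68 stood at -0.49 (-0.79 to -0.18) in the difference, COL3A1 at -0.71 (-1.84 to 0.42), PECAM1 at -0.11 (-0.55 to 0.33) and EPCAM at 0.01. The part of the hepatocyte genes in the result was not tested.

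HSPA5 had the lowest difference (-0.83, -0.88 to -0.77), followed by PDIA3 (-0.72, -0.80 to -0.64), HYOU1 (-0.65, -0.71 to -0.59) and CALR (-0.53, -0.55 to -0.51). CANX (-0.45), PDIA4 (-0.41), HSP90B1 (-0.33), DNAJC3 (-0.32, -0.48 to -0.16) and PDIA6 (-0.32) came next. For DNAJB9 a difference was not detectable at this depth (-0.05, -0.26 to 0.16). HSP90B1, the lowest of the 10 in IP over input, was thus among the members whose recovery differed least between the cultures.

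A lower ratio can come from the IP or from the input, and the 2 sides were examined in turn. In the input libraries 0 of the 10 were called higher and 0 lower in shRBM39 over shControl, where 5.10% of features were called higher and 5.74% lower. The median was -0.17, against -0.01 over all features and 0.07 over the deeply counted ones. Such values are shares of the RNA in a library, so fewer cells with the transcript and less of it per cell cannot be told apart. PDIA6 (-0.42, -0.48 to -0.37), CANX (-0.31, -0.33 to -0.29), DNAJB9 (-0.30, -0.45 to -0.14) and PDIA4 (-0.27, -0.31 to -0.23) were the lowest. DNAJC3 was the highest, at 0.29 (0.18 to 0.41). HSPA5 (0.01, -0.03 to 0.05) and CALR (0.07, 0.05 to 0.09) were near level, and both signs turned with total-count scaling (-0.07 and -0.01).

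The genes with the first ER stress element in a window did not share an input value: HSPA5 stood at 0.01, CALR at 0.07, HSP90B1 at -0.18, CANX at -0.31 and PDIA6 at -0.42. HYOU1, with the second element, stood at -0.16 (-0.21 to -0.11).

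In the IP libraries all 10 stood lower in shRBM39 than in shControl, with a median of -0.71 against -0.01 over all features. None reached 2-fold, so 0 were called lower and 0 higher, where 5.27% of features were called lower and 6.61% higher. With total-count scaling, which moved the median of all features by -0.27, 5 were called lower, namely PDIA3, HSPA5, HYOU1, CANX and PDIA6. PDIA3 had the lowest value (-0.86, -0.91 to -0.80), followed by HSPA5 (-0.82, -0.85 to -0.78) and HYOU1 (-0.81, -0.85 to -0.77). In HSPA5 and CALR the difference in recovery came with near-level inputs and a lower IP. In DNAJC3 it came with a level IP (-0.03, -0.14 to 0.09) and a higher input, and in DNAJB9 the IP (-0.35) and the input (-0.30) were lower by similar amounts.

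**Figure D3:**
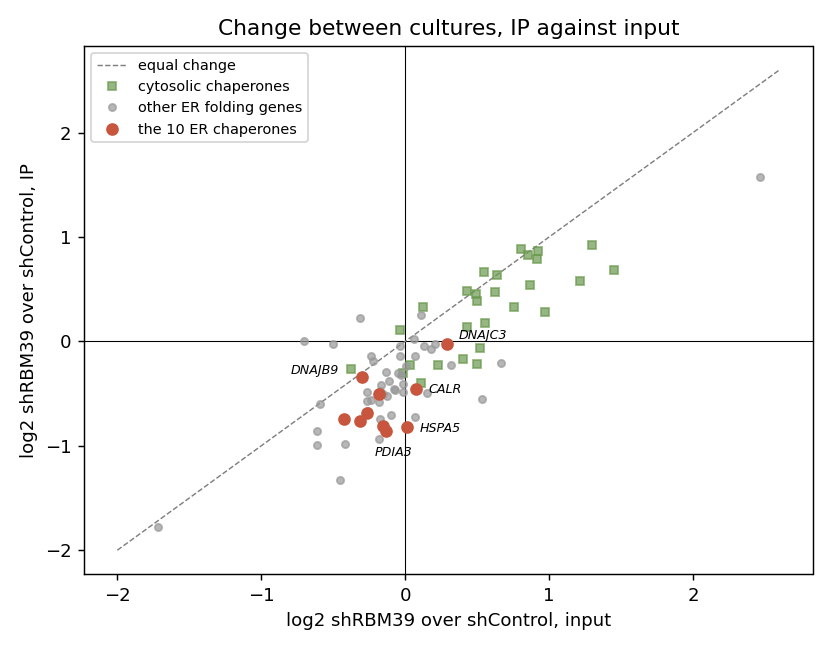
Log2 shRBM39 over shControl in the IP (vertical) against the same in the input (horizontal) for the 10 ER chaperones (red), other ER folding genes (grey) and cytosolic chaperones (green), with the line of equal change dashed. All 10 red points lie below the line, DNAJB9 the closest to it, and the cytosolic chaperones lie mostly at higher input values (median 0.54) than the ER chaperones (median -0.17).

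Other genes of ER folding were examined as a list of 47 further chaperones, isomerases, oxidases and glycan-processing enzymes, of which 46 were compared. By DESeq2's test over both cultures, 24 of the 46 were lower in the IP and 0 higher, where 2097 of the 19210 features were lower and 2598 higher. By edgeR's test, 28 of the 46 were lower and 0 higher, where 17.6% of all features were lower and 19.2% higher. Among them were CLGN, a testis-enriched relative of calnexin (log2 -1.36), UGGT2 (-1.30) and UGGT1 (-0.95), which re-glucosylate misfolded glycoproteins for another round on the lectins, DNAJC10, a J-domain reductase (-1.22), and ERO1A, the oxidase that recharges disulfide isomerases (-0.97). The pairwise medians were -0.44 in shControl cells, with 5 called lower and 0 higher, and -0.70 in shRBM39 cells, with 14 called lower and 0 higher. The first of these counts lower is near the 11.3% of all features called lower in that comparison, while 9.00% were called lower in the second. The lowest called in shControl cells were FKBP7 (-1.18), UGGT2 (-1.15), TMX3 (-1.11) and DNAJC10 (-1.06), and in shRBM39 cells CLGN (-1.69), HSPA13, an Hsp70 relative (-1.67), UGGT2 (-1.45) and DNAJC10 (-1.38). The difference in recovery had a median of -0.30. GANAB, the catalytic subunit of glucosidase II, was called lower there (-1.08), where 2.74% of all features were. Between the inputs FKBP10, a prolyl isomerase of collagen folding, was called lower (-1.72). ERP27 was called higher (2.47, on 48 counts in shControl input). Between the IPs FKBP10 (-1.78) and P3H1, a collagen prolyl hydroxylase (-1.33), were called lower and ERP27 higher (1.58). Of all features, 5.74% were called lower and 5.10% higher between the inputs, and 5.27% and 6.61% between the IPs. In these comparisons no count of the list exceeded the share of all features.

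ER-associated degradation, which returns misfolded proteins to the cytosol, was listed with 21 genes. Of these, 8 were lower in the IP by edgeR's test and 4 higher, the latter near the 19.2% of all features that were higher. By DESeq2 7 were lower and 3 higher, where 2097 of the 19210 features were lower and 2598 higher. The 3 higher are near that share of all features. The lower ones included SEL1L (-1.21) and ERLEC1 (-1.20), which act in the lumen or membrane. The 4 that were higher were VCP (0.88), NPLOC4 (0.51) and UFD1L (0.49, the table's older symbol for UFD1, adjusted p = 0.0175 by edgeR and 0.0552 by DESeq2), which form the cytosolic extraction complex, and SYVN1 (0.75), the membrane ubiquitin ligase. Of 14 genes for stress sensors, their transcription factors and related proteins, 2 were lower, MBTPS2 (-1.16) and ATF6 (-0.47). Another 3 were higher, PPP1R15A (0.66), ATF6B (0.52) and EIF2AK3, which encodes PERK (0.44). Both counts are near the shares of all features, 17.6% lower and 19.2% higher. By DESeq2 1 of these 14 was lower and 1 higher, where 2097 of the 19210 features were lower and 2598 higher. VCP was also the degradation gene called higher between the inputs (1.74) and between the IPs (1.40), where 5.10% and 6.61% of all features were. In the input 0 of these 14 genes were called between the cultures, with 5 above 0 and 9 below. Of all features, 5.10% were called higher there and 5.74% lower. The 14 genes ran from MBTPS2 at -0.96 to PPP1R15A at 0.78 on the log2 scale. Between them lay DDIT3 at -0.51, XBP1 at -0.22 and PPP1R15B at 0.22. Between the IPs MBTPS2 was called lower (-1.09), where 5.27% of all features were.

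Most chaperones outside the ER stood above their input level in the IP. Of 28 cytosolic chaperone genes 15 were higher in the IP by edgeR's test and 0 lower, and of 9 mitochondrial ones 5 were higher and 0 lower, where 19.2% of all features were higher and 17.6% lower. In shControl cells 26 of the 28 cytosolic and 8 of the 9 mitochondrial genes lay above 0, and in shRBM39 cells 24 and 7. HSPE1 (-0.39 and -0.09), DNAJB4 (-0.24 and -0.12) and HSPH1 (-0.08 and -0.08) lay below 0 in both cultures, on the side of the ER chaperones. The cytosolic list had medians of 0.63 in shControl cells, with CCT5 (1.17) and FKBP4 (1.12) called higher, a share near the 7.70% of all features, and 0.41 in shRBM39 cells, with 0 called. The mitochondrial list had medians of 0.79, with HSPA9 (1.09) and LONP1 (1.02) called higher, and 0.44, with 0 called. Of all features, 7.70% were called higher in shControl cells, and 5.29% higher and 9.00% lower in shRBM39 cells. Between the inputs the cytosolic HSP90AB1 (1.45), HSPA1A (1.30) and HSP90AA1 (1.21) and the mitochondrial HSPA9 (1.02) were called higher in shRBM39. Of all features, 5.10% were called higher there.

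**Figure D4:**
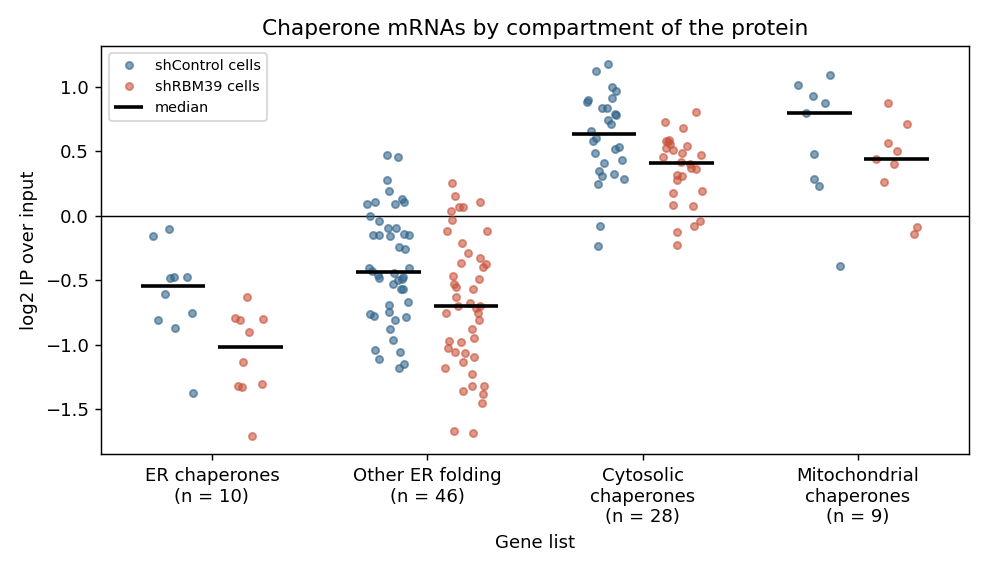
Log2 IP over input in shControl (blue) and shRBM39 cells (red) for 4 lists of chaperone genes by the compartment of the protein, each point a gene and each bar the median of its list. The ER chaperones have medians of -0.55 and -1.02, the other ER folding genes -0.44 and -0.70, and the cytosolic chaperones 0.63 and 0.41.

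Relatives of one family were then set side by side, since a gap between 2 genes measured in the same libraries does not depend on the scaling of those libraries. HSP90B1 was compared with HSP90AB1 and HSP90AA1, the cytosolic Hsp90 proteins, and with TRAP1, the mitochondrial one. In shControl cells HSP90B1 was 4.65-fold below HSP90AB1 in IP over input (log2 gap -2.22, -2.24 to -2.19), 4.26-fold below HSP90AA1 (-2.09, -2.12 to -2.06) and 4.94-fold below TRAP1 (-2.30, -2.37 to -2.24). In shRBM39 cells the gaps were 3.43-fold, 3.45-fold and 5.35-fold. Between the inputs, where HSP90B1 stood at -0.18, it lay below HSP90AB1 by a log2 gap of -1.63 (-1.66 to -1.60) and below HSP90AA1 by one of -1.39 (-1.42 to -1.36). The recovery ratios of HSP90AB1 and HSP90AA1 differed between the cultures by -0.76 and -0.63, against -0.33 for HSP90B1 and -0.21 for TRAP1. From TRAP1, HSP90B1 had small gaps, -0.11 (-0.19 to -0.03) between the inputs and -0.11 (-0.21 to -0.02) in the difference of recovery. With counts divided by 2, neither of these gaps left out 0.

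HSPA5 was compared with HSPA8, the constitutive cytosolic Hsp70, and HSPA9, the mitochondrial one. In IP over input of shControl cells it stood 2.07-fold below HSPA8 (log2 gap -1.05, -1.10 to -1.01) and 2.96-fold below HSPA9 (-1.57, -1.61 to -1.52). In shRBM39 cells it stood 3.38-fold and 3.64-fold below them. HYOU1 and a cytosolic relative, HSPH1, did not differ beyond counting error in shControl cells (gap -0.07, -0.15 to 0.0045). In shRBM39 cells HYOU1 was 1.65-fold lower than HSPH1 (gap -0.73, -0.80 to -0.65). HSPA4 and HSPA4L, relatives on the cytosolic list, had log2 ratios of 0.90 and 0.35 in shControl cells, above HYOU1 (-0.15). DNAJB9 stood 2.11-fold below the cytosolic DNAJB1 in shControl cells and 2.41-fold in shRBM39 cells, and their gap did not differ detectably between the cultures (-0.19, -0.42 to 0.04).

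Features with a pattern most like that of HSPA5 were sought among the 10310 with at least 1000 summed counts, by Euclidean distance over 3 log2 values, the IP over input in each culture and the change in input. The 5 nearest were TF, the serum iron carrier transferrin (distance 0.106), MTTP, which loads lipid on apolipoprotein B (0.146), IL1RAP, a co-receptor of interleukin-1 (0.157), APLP2, a membrane relative of the amyloid precursor (0.175), and ITIH2, a plasma protein (0.176). TF had log2 ratios of -0.43 in shControl cells and -1.37 in shRBM39 cells with an input change of -0.05. Of the ER chaperones the nearest was PDIA3, at rank 8 (distance 0.197), followed by DNAJC3 at rank 138, PDIA4 at rank 154 and CANX at rank 183, whereas HSP90B1 was at rank 1779 (distance 1.01). The 10 genes shared the sign of IP over input in both cultures but not that of the input change, where 3 lay above 0 and 7 below.

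Features that lie over or resemble these genes could share reads with them. ATP6V1C2, which overlaps PDIA6 in RefSeq, had up to 10.7% of its counts, the largest such share among the overlapping or similar features with a row in the count table. DNAJC3-AS1 had up to 4.64% of the counts of DNAJC3, ELL3 up to 1.41% and the copy PDIA3P1 up to 1.21% of those of PDIA3, and the HSP90B1 copy HSP90B2P up to 0.231% of those of HSP90B1.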

How the data were processed

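The authors deposited 1 table of raw, unnormalized counts for gene symbols. The submitters' processing notes list HISAT2 2.0.4, StringTie 1.3.4d, cutadapt 1.9 and hg38. What each did, how reads were counted and whether strand was used is not given in the sources used here. Each of the 4 columns carries the name of its sample. Of counts from 3 to 6, 71.4% to 75.6% were even, as when both mates of a pair are counted, so counting intervals are too narrow, and intervals from counts divided by 2 were computed as an alternative.

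Features reaching 10 counts in 2 or more libraries were kept and scaled by TMM (edgeR 4.0.16, R 4.3.3). Log2 ratios used counts plus 0.5, with exact conditional (Clopper-Pearson) 95% intervals. Differences of ratios and gaps between genes used the counting standard error. Both cultures were tested together with edgeR's quasi-likelihood test (culture plus fraction, Benjamini-Hochberg), with DESeq2 1.42.0 as the alternative. The steps were tested on simulated counts. All named members are described. From the other lists, called genes were named by size, along with some of known role that were picked after their values were seen, as were the family relatives. The members and lists were chosen with earlier results of these data known. No transcript lengths were used, so levels are not compared between genes. RefSeq (GRCh38.p14) gave positions, promoter windows and the older symbols of 3 listed genes.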

Additional observations from a re-analysis of the deposited data

How the results depend on the processing

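With libraries scaled to total counts, the median log2 value of the 10 ER chaperones was -0.47 for IP over input in shControl cells, -1.13 in shRBM39 cells, -0.63 for the difference, -0.25 between inputs and -0.98 between IPs. Over all features it gave 1876 higher and 1862 lower calls in place of 1479 and 2173 for shControl cells, 718 and 2164 in place of 1016 and 1729 for shRBM39 cells, 570 and 887 in place of 843 and 526 for the difference, 768 and 1304 in place of 979 and 1102 between inputs, and 729 and 1911 in place of 1269 and 1012 between IPs. It called 6 members lower in place of 5 for IP over input in shRBM39 cells, with PDIA4 (-1.01) gained, 1 in the difference and 5 between IPs, and it turned HSPA5 (-0.070) and CALR (-0.0067) in the input comparison. Without the filter on low counts the medians for IP over input were -0.46 and -0.90, where the median of all features moved by 0.09 and 0.12, and DNAJC3 turned to 0.0078 between IPs. TMM without mitochondrial and small structured RNAs gave a median of -0.77 between IPs. The cause of these shifts was not tested. DESeq2 size factors, 5 added to each count and counts divided by 2 changed no call or direction of the 10 genes, and with counts divided by 2 the intervals of 10, 10, 9, 9 and 9 genes still left out 0 in the 5 comparisons. DESeq2's test, edgeR with total counts and edgeR without the filter each found 8 of the 10 lower in the IP. Over all features these found 2097, 3011 and 2797 lower, the last of 33840 features and the others of 19210. The tests of IP against input over both cultures already pair the fractions by culture. The other comparisons have 1 library on each side, so no paired test of them could be made. Depth limits DNAJB9 and DNAJC3, with 626 to 1364 counts per library.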

Other observations

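The machinery that brings proteins into the ER was listed separately. Of 23 genes of the signal recognition particle, the translocon and the signal peptidase, 6 were lower in the IP by edgeR's test over both cultures at an adjusted p under 0.05, and SEC61B (log2 0.41, adjusted p = 0.0358 by edgeR and 0.116 by DESeq2) was higher, where 17.6% of all features were lower and 19.2% higher. DESeq2 found 6 lower and 0 higher, where it found 2097 of the 19210 features lower and 2598 higher. SPCS3, a signal peptidase subunit (-1.56), and TRAM1, a translocating chain protein (-1.30), were the lowest, and the list's pairwise medians were -0.19 in shControl and -0.34 in shRBM39 cells.

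The promoter search also found the first ER stress element for CRELD2 and ERO1B among the 41 other ER folding genes with a window. XBP1 had it too, among the 14 genes for stress sensors, transcription factors and related proteins. The second was found for SDF2L1 and HERPUD1. In the input of shRBM39 over shControl, CRELD2 stood at 0.11 (-0.04 to 0.27), HERPUD1 at 0.05 (-0.18 to 0.28), SDF2L1 at -0.04 (-0.21 to 0.14), XBP1 at -0.22 (-0.25 to -0.19) and ERO1B, on 26 and 17 counts, at -0.61 (-1.60 to 0.31), all short of 2-fold. Only 5.10% of all features were called higher there and 5.74% lower, so being short of a call does not set these genes apart.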
